A study of Mus musculus with 2 samples.

Results

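Mir130a, Mir130b, Mir301 and Mir301b make up the Mir130-Mir301 family of microRNA genes here, and Mir148a, Mir148b and Mir152 the Mir148-Mir152 family. These 7 genes are among 1973 annotated miRNA genes in the tables. The 7 were chosen by their GENCODE symbols and not by their values, though with earlier results of these data known. They were measured by microRNA-seq in whole bladder of newborn mice (strain B6NCrl, postnatal day 0, no treatment). There was 1 group of 2 libraries, each made from the bladder of 1 newborn. Per the labels the newborns are littermates and their sex was not collected; they are called pup 1 and pup 2. Pup 1 had 7460621 counts on the sense strand of miRNA genes and pup 2 had 3636650. Levels are scaled to 1000000 such counts (CPM), given as mean ± SD over the 2 pups (n = 2). A bladder holds several cell types, so a change in the number of cells of a type and a change in RNA per cell cannot be told apart.

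A microRNA guides the Argonaute protein to messenger RNAs, mostly by pairing of its seed (bases 2 to 8) with sites in the message, which are then repressed. The seed defines a family, because miRNAs with the same seed can recognise the same sites, while the rest of the sequence differs. A hairpin precursor gives a mature miRNA from its 5′ arm and another from its 3′ arm, of which often only 1 accumulates. The Mir130-Mir301 miRNAs have been studied in endothelial and blood-forming cells, and the Mir148-Mir152 miRNAs are known for repressing the DNA methyltransferase Dnmt1.

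The 3′-arm sequences are shown because they carry the seeds that define the families. They come from RefSeq (GRCm38.p6), which held this arm for 6 of the 7 genes, all but Mir301b. Each is written 5′ to 3′ with the seed in capitals.
miR-130a-3p: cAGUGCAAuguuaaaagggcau
miR-130b-3p: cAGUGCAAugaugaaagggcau
miR-301a-3p (gene Mir301): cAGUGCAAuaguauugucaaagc
miR-148a-3p: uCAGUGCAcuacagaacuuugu
miR-148b-3p: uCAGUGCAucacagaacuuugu
miR-152-3p: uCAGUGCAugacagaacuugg
The seeds of the families were AGUGCAA and CAGUGCA. The run CAGUGCA, of 7 bases, lay at bases 1 to 7 of the 3 Mir130-Mir301 sequences and at bases 2 to 8 of the 3 Mir148-Mir152 sequences. The families thus hold the same 7 letters shifted by 1 base, and it was the longest run that any of their sequences shared across families. Of 1738 mature mouse miRNAs in the table, 7 had the seed AGUGCAA (0.403%) and 3 had CAGUGCA (0.173%).

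Outside the seed the 3′-arm sequences shown fell into closer pairs, and the 3′ arm of Mir301b was not among those compared. Aligned from base 1, miR-130a-3p and miR-130b-3p had 2 mismatches over 22 bases and the same last 9 bases, while miR-130a-3p and miR-301a-3p had 10 mismatches. Within the Mir148-Mir152 family, miR-148a-3p and miR-148b-3p had 2 mismatches and the same last 12 bases. miR-152-3p had 3 mismatches to miR-148a-3p and 2 to miR-148b-3p over 21 bases. No listed mature sequence of a member occurred unchanged in the hairpin of another gene among 1005 hairpins. The 3′ arm of Mir301b was not searched, and near matches were not counted. The longest run a member's hairpin shared with another hairpin was between 12 bases (Mir152, with Mir148a) and 17 bases (Mir130a, with Mir6389), shorter than any of these mature miRNAs.

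The 5′ arms of the 7 hairpins are shown because the gene counts hold both arms and cannot be split. The seed is again in capitals.
miR-130a-5p: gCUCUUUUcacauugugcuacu
miR-130b-5p: aCUCUUUCccuguugcacuacu
miR-301a-5p: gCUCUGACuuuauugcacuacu
miR-301b-5p: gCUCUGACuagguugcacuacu
miR-148a-5p: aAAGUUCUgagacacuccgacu
miR-148b-5p: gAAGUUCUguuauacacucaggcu
miR-152-5p: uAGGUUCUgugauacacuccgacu
The 5′ arms of Mir301 and Mir301b had the seed CUCUGAC in common, and those of Mir148a and Mir148b the seed AAGUUCU. The other 3 had seeds of their own among the members. A level given below is therefore that of the gene's hairpin products on the sense strand and not of a named arm.

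The members lie at 6 places in the genome (GRCm38, the assembly that mm10 names; GENCODE M21). Mir130a (ENSMUSG00000065484.1) is at chr2:84741115-84741178 on the minus strand and Mir148a (ENSMUSG00000065505.1) at chr6:51269812-51269910 on the minus strand, and no other annotated gene overlaps either. Mir301 (ENSMUSG00000065589.1, chr11:87113004-87113089, plus strand) is in an intron of Ska2, a gene of the spindle and kinetochore. Mir148b (ENSMUSG00000065560.1, chr15:103285125-103285221, plus strand) is in an intron of Copz1. Mir152 (ENSMUSG00000065515.1, chr11:96850393-96850465, plus strand) is in an intron of Copz2. Copz1 and Copz2 are related genes for the zeta subunit of the COPI vesicle coat, so these 2 related miRNA genes sit in related hosts. Mir130b (ENSMUSG00000065572.1, chr16:17124061-17124142) and Mir301b (ENSMUSG00000076288.1, chr16:17124400-17124496) are on the minus strand, 257 bases apart, in introns of 2610318N02Rik. They were the only members here with another annotated miRNA gene within 10000 bases. The messenger RNAs of the hosts were not analysed here.

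The first question is what share of the miRNA counts of newborn bladder each member held. Counts were not calibrated to molecules here, so a ratio between genes is a ratio of counts. All 7 genes were detected in both pups, over an 843-fold range, and 1 gene held most of the counts. The Mir130-Mir301 family summed to 9675 ± 520.3 CPM (0.967% of all miRNA counts) and the Mir148-Mir152 family to 1059 ± 38.5 CPM (0.106%). Mir143, the smooth muscle miRNA, holds 52.5% of the counts behind these shares, and without it in the totals the members sum to 22586 CPM in place of 10734 CPM. All shares and ranks here leave out reads that mapped to several places. Genes with near-identical copies can therefore stand too low, and the members' shares and ranks too high against them. The Mir130-Mir301 sum was 9.02 times the Mir148-Mir152 sum in pup 1 and 9.24 times in pup 2. Without Mir130a, the other 3 Mir130-Mir301 genes summed to 1213 ± 87.5 CPM, with a range of 1151 to 1275 CPM. The Mir148-Mir152 family ranged from 1032 to 1086 CPM, below it in both pups.

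Mir130a had 60848 counts in pup 1 and 31886 in pup 2, or 8156 CPM (exact 95% interval 8091 to 8221) and 8768 CPM (8672 to 8864). Both pups were high, and by mean level (8462 CPM) Mir130a ranked 14 among all miRNA genes. Mirlet7d was next at 8459 CPM and lay above Mir130a in pup 1, at 9067 CPM. Mir301, whose product is miR-301a, had 616.0 CPM in pup 1 and 629.2 CPM in pup 2, from 4596 and 2288 counts. Its pups were nearly level. Mir130b had 524.6 CPM in pup 1 and 636.0 CPM in pup 2, from 3914 and 2313 counts. Pup 2 was the higher. Mir301b, the neighbour of Mir130b, had 78 and 35 counts, or 10.5 CPM (8.26 to 13.0) and 9.62 CPM (6.70 to 13.4). It was low in both pups, with intervals that overlapped, though well above the limit that a count of 0 allows, 0.402 CPM in pup 1 and 0.825 CPM in pup 2. All intervals and limits here are for counting error alone, because reads without molecular identifiers are not independent molecules.

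In the Mir148-Mir152 family, Mir148a had 637.3 CPM in pup 1 and 685.5 CPM in pup 2, from 4755 and 2493 counts. It led its family in both pups. Mir152 had 252.9 CPM and 258.5 CPM, from 1887 and 940 counts, and Mir148b had 141.7 CPM and 142.4 CPM, from 1057 and 518 counts. Neither gene's intervals separated the pups. By mean level, Mir148a, Mir301 and Mir130b ranked 83, 85 and 87 of all miRNA genes, Mir152 ranked 119, Mir148b 141 and Mir301b 246.

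**Figure D1:**
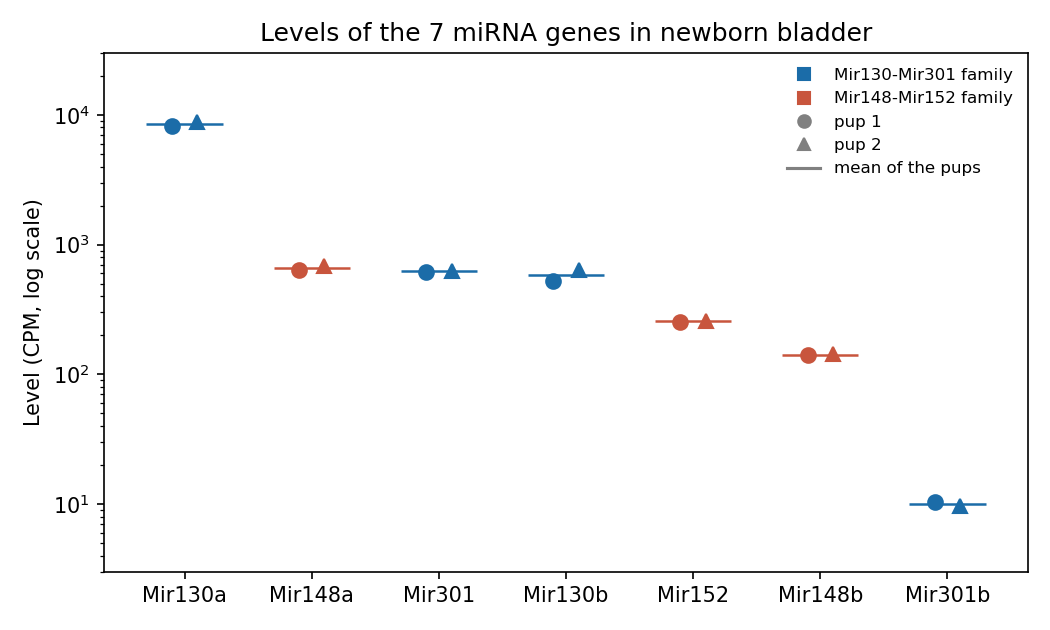
Level of each member in CPM on a log axis, with a circle for pup 1, a triangle for pup 2 and a line at the mean. Mir130a stands apart at the top, Mir148a, Mir301 and Mir130b lie close together between 524.6 and 685.5 CPM, and Mir301b is lowest at 10.5 and 9.62 CPM.

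In order of mean level the members were Mir130a, Mir148a, Mir301, Mir130b, Mir152, Mir148b and Mir301b. Mir130a was 12.8-fold above Mir148a, the next gene. Mir148a and Mir301 differed by 1.06-fold, with the lowest Mir148a value at 637.3 CPM and the highest Mir301 value at 629.2 CPM. Their ranges were apart by less than the difference between the pups of Mir148a. Mir301 and Mir130b overlapped, and with 636.0 against 629.2 CPM the order of these 2 genes was turned in pup 2. Mir130b was 2.27-fold above Mir152, Mir152 was 1.80-fold above Mir148b and Mir148b was 14.1-fold above Mir301b, each with ranges that did not overlap. The genes of a step are measured in the same libraries, and 2 libraries are too few for a test over pups. Within a library, Mir301 had 0.967 times the counts of Mir148a in pup 1 (exact 95% interval 0.928 to 1.01) and 0.918 times in pup 2 (0.867 to 0.972), so it was the lower in both pups while the interval of pup 1 includes equal counts. Each read of a mature miRNA counts once whatever the length of the annotated gene, so these levels were not divided by length. Per base of the annotated gene the mean levels of Mir301, Mir130b and Mir148a were 7.24, 7.08 and 6.68 CPM per base, which turns the order of these 3 genes, and the other 4 members kept their positions.

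**Figure D2:**
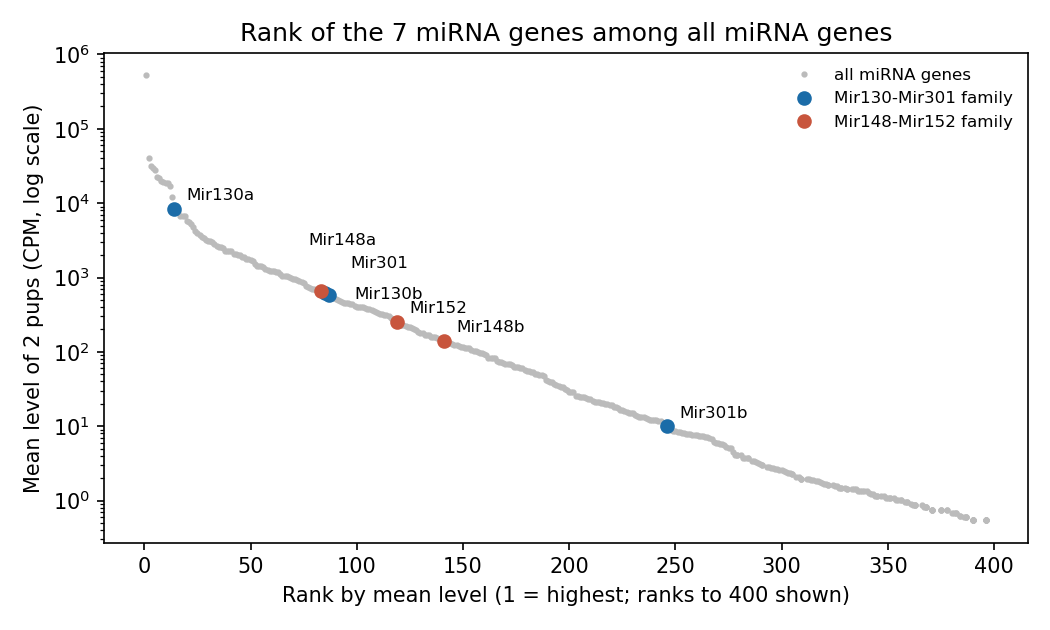
Mean level in CPM (log axis) of the miRNA genes against their rank, to rank 400, with the members named. Mir130a is at rank 14, 3 members lie at ranks 83 to 87, and Mir301b is at rank 246.

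The second question is how evenly each family is spread over its genes. Mir130a held 87.5% ± 0.230 of the Mir130-Mir301 counts, Mir301 6.44% ± 0.251, Mir130b 5.99% ± 0.492 and Mir301b 0.104% ± 0.0117. In the Mir148-Mir152 family Mir148a held 62.4% ± 0.945, Mir152 24.2% ± 0.508 and Mir148b 13.4% ± 0.437. The leading share of the Mir130-Mir301 family was thus the larger, at 87.6% and 87.3% in pups 1 and 2 against 61.8% and 63.1%. The Mir26, Mir29 and Mir30 families, with several members at separate places, were measured in the same way. Mir26b held 99.8% ± 0.00415 of the Mir26 family, Mir29a 79.3% ± 1.44 of the Mir29 family and Mir30e 50.4% ± 0.668 of the Mir30 family. Both families lay between Mir30 and Mir26 in this share, and the ranges of the 5 families did not overlap. In these other families Mir26a-1, Mir26a-2, Mir30c-1, Mir30c-2, Mir29b-1, Mir29b-2 and Mir29c share at least 22 bases with another miRNA gene. Reads that mapped to several places were left out of the gene counts, so those genes can be measured too low, and the leading shares of their families too high. The 7 members share an exact run of at most 17 bases with another hairpin. Mir30b and Mir30d were not in that comparison. Near matches and places outside the annotated hairpins were not counted. Whether the members too lost reads with several possible places was therefore not tested. Such reads made up 22.7% of pup 1 and 24.8% of pup 2.

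**Figure D3:**
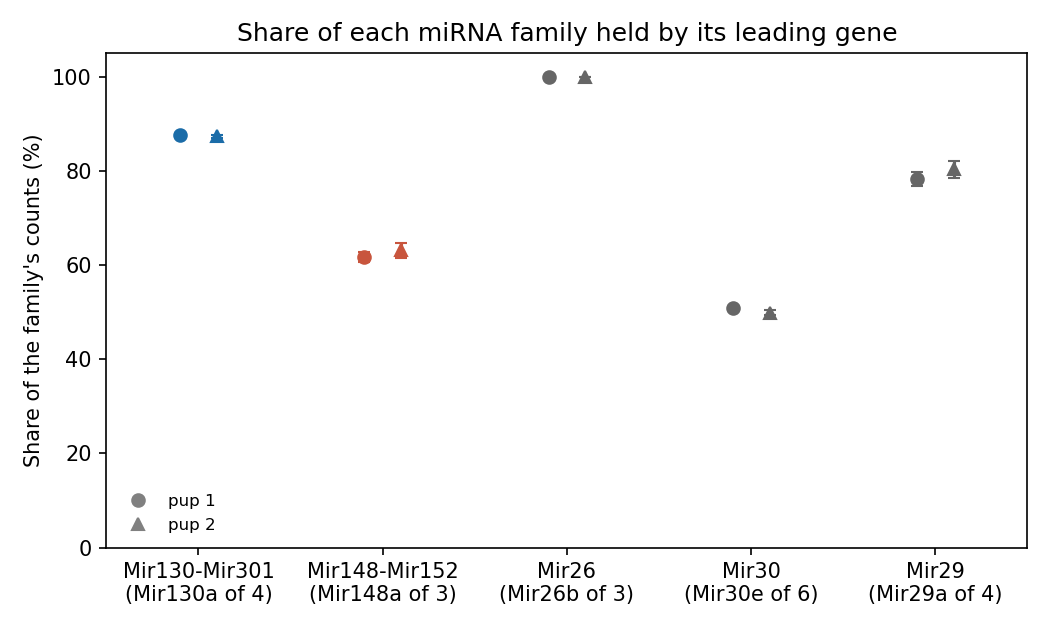
Share of each family's counts held by its leading gene in percent, with a circle for pup 1, a triangle for pup 2 and bars for exact 95% binomial intervals. Mir130a held 87.6% and 87.3% of its family and Mir148a 61.8% and 63.1% of its own, between Mir30e near 50.4% and Mir26b at 99.8%.

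Mir130b and Mir301b, neighbours on the same strand in the same host gene, differed widely in level. Mir130b had 50.2 times the counts of Mir301b in pup 1 (exact 95% interval 40.1 to 63.6) and 66.1 times in pup 2 (47.4 to 95.1). The intervals of the pups overlapped. Mir301, the relative of Mir301b on another chromosome, had 58.9 and 65.4 times its counts. In the related hosts Copz1 and Copz2, Mir148b had 0.560 times the counts of Mir152 in pup 1 (0.519 to 0.604) and 0.551 times in pup 2 (0.494 to 0.614), so the Copz2 miRNA was the higher in both pups.

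The other measured genes with the same seed had no counts to add to these levels. Mir130c, Mir6341 and Mir6389, whose mature miRNAs have the seed AGUGCAA, had 0 counts in both pups, so each could lie at up to 0.402 CPM in pup 1, and in pup 2 at up to 0.825 CPM. These limits are for counting error alone, because reads that mapped to several places were left out. Mir721 has this seed too and was not analysed here. No other mature miRNA in the RefSeq table had the seed CAGUGCA.

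Counts on the strand opposite to a member were rare. Mir130a had 16 such counts in pup 1 and 7 in pup 2, or 0.0263% (exact 95% interval 0.0150% to 0.0427%) and 0.0219% (0.00882% to 0.0452%) of its counts. The other 6 members had 0 in both pups, which allows up to 0.0631% for Mir148a in pup 1 and, for the thinly covered Mir301b, up to 3.85% in pup 1 and 8.57% in pup 2. Over all miRNA genes the opposite strand held 3.17% of the counts in pup 1 and 3.18% in pup 2.

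The third question is whether these genes differed between the pups. Mir130b showed the largest ratio of the 7, 1.23-fold higher in pup 2 (log2 ratio 0.30, counting SE 0.038, adjusted p = 2.67e-14). Mir130a was 1.09-fold higher in pup 2 (log2 ratio 0.13, counting SE 0.0100, adjusted p = 2.83e-36) and Mir148a also 1.09-fold (log2 ratio 0.13, counting SE 0.036, adjusted p = 0.00149). Mir301 (log2 ratio 0.05), Mir152 (0.06), Mir148b (0.03) and Mir301b (-0.08, counting SE 0.29) did not pass, with adjusted p between 0.29 and 0.94. The counting SE of Mir301b is nearly as large as the log2 ratio of Mir130b, so a difference of that size was not detectable at its depth. These are two-sided exact binomial tests adjusted by Benjamini-Hochberg over 362 genes with at least 10 counts. They set 1 library against another with read counting noise alone, and compare these libraries, not conditions.

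In all, 3 of the 7 members passed, each with the higher level in pup 2. Over all genes tested 32.3% passed, with 19.1% higher in pup 2 and 13.3% higher in pup 1. These are 69 and 48 genes. The split depends on the scaling and was 56 and 69 with DESeq2 size factors and 59 and 64 with total count scaling, under which the 3 members still passed as higher in pup 2. Where both libraries had 100 counts or more the share was 51.5%, and 3 of the 6 members of that depth passed, so the members' count lies near the background. The median log2 ratio was 0.06 over the members and 0.03 over all genes tested. The median absolute log2 ratio was 0.08 over the members, 0.16 over all genes tested and 0.13 over the genes of that depth. Over all genes, edgeR put the biological coefficient of variation between these libraries at 13.2%. An edgeR exact test with that spread called none of the members (0 at an unadjusted p under 0.05) and 1.38% of all genes tested. The spread comes from the same 2 libraries that the test compares, so a gene of typical ratio could not pass and this count of 0 is no evidence that the members did not differ. With no filter on low counts Mir148a did not pass the binomial test (adjusted p = 0.284). The coefficient of variation of CPM over the pups was 13.6% for Mir130b and between 0.379% and 5.85% for the other 6 members.

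**Figure D4:**
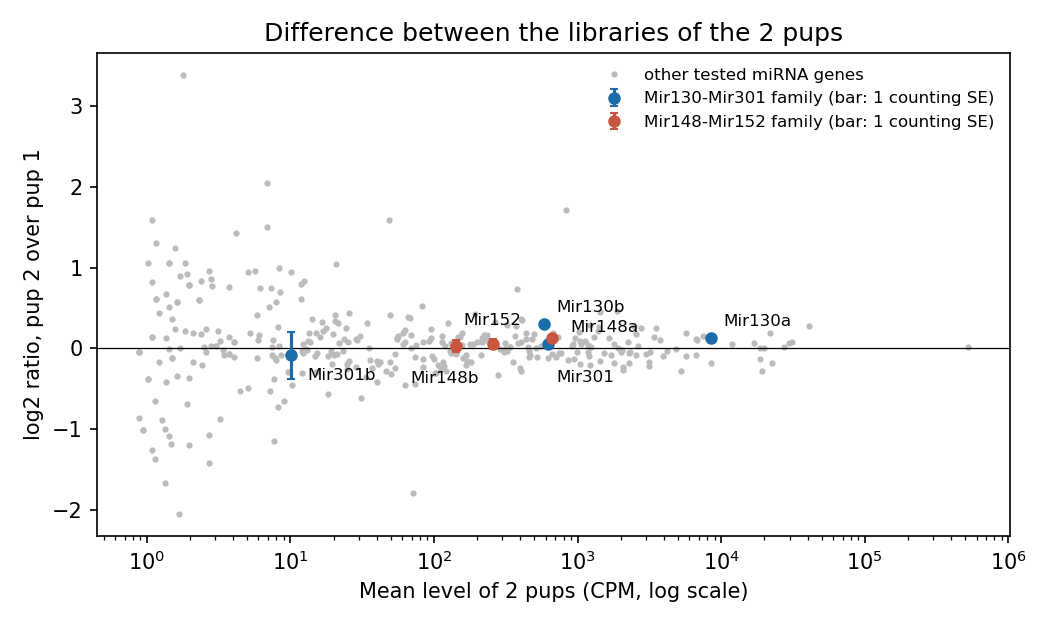
Log2 ratio of pup 2 over pup 1 against mean level in CPM (log axis) for the 362 tested genes in grey and the 7 members in colour, with bars of 1 counting SE. The members lie between -0.08 and 0.30, with Mir130b highest and a wide bar for Mir301b.

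Ratios between members within a library need no scaling of library sizes, and the intervals of the pups overlapped in most of them. Mir130a had 12.8 times the counts of Mir148a in both pups (exact 95% intervals 12.4 to 13.2 and 12.3 to 13.3). Mir301 had 2.44 times the counts of Mir152 in pup 1 (2.31 to 2.57) and 2.43 times in pup 2 (2.26 to 2.63). For Mir130b the ratios moved. It had 0.852 times the counts of Mir301 in pup 1 (0.816 to 0.889) and 1.01 times in pup 2 (0.954 to 1.07). Of the 21 pairs of members, the 95% intervals of the pups were apart in 5, and Mir130b was in each of these 5. In the other pair that holds Mir130b, with Mir301b, and in the 15 pairs without Mir130b, the intervals overlapped. These 5 pairs share the Mir130b counts, so they restate the difference of Mir130b and are not separate observations. The intervals were not adjusted for the number of pairs.

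**Figure D5:**
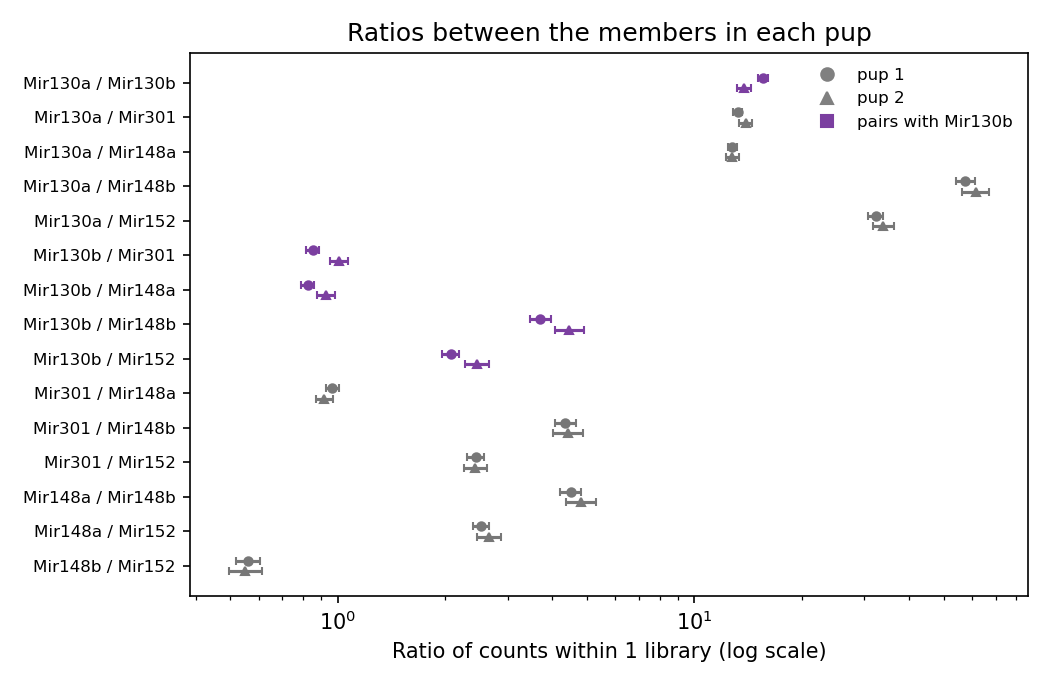
Ratio of counts between members within a library on a log axis for the 15 pairs that leave out Mir301b, with exact 95% intervals, a circle for pup 1 and a triangle for pup 2. The pups' intervals are apart in the 5 pairs with Mir130b, drawn in purple, and overlap in the others.

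The cell type markers of bladder give the setting of these differences. The smooth muscle markers Mir143 and Mir145a, the 7 epithelial markers, the endothelial marker Mir126a and the 4 mesenchymal markers were all detected. Their CPM sums in pup 2 were 0.994, 0.976, 0.986 and 0.934 times those in pup 1. Within these lists Mir145a (11840 and 12122 CPM in pups 1 and 2) and Mir205 (3284 and 3568 CPM) were higher in pup 2. So were Mir199b (211.6 and 232.9 CPM) and Mir199a-2 (53.9 and 57.2 CPM), and every other gene of these lists was lower. These sums and levels use total counts, not the TMM scaling of library sizes behind the log2 ratios above. On that scaling Mir143, Mir145a and Mir126a had positive log2 ratios of pup 2 over pup 1 (0.015, 0.058 and 0.0043). The blood cell markers, with 6 of 6 measured members detected, had a sum of 1201 CPM in pup 1 against 2357 CPM in pup 2, and Mir142 was not analysed here. Most of that difference was the myeloid miRNA Mir223 (396.2 and 1274 CPM). The red cell miRNAs Mir144 (288.3 and 471.0 CPM) and Mir451a (357.1 and 452.3 CPM) were higher in pup 2 too, Mir486 (53.1 and 56.9 CPM) and Mir150 (29.1 and 31.9 CPM) were nearly level and Mir155 (77.3 and 70.7 CPM) was lower. The endocrine markers summed to 52.9 and 110.8 CPM, with 3 of 4 detected and most of the difference in Mir375 (24.4 and 72.3 CPM), and the gut and kidney markers to 104.7 and 145.7 CPM, with 4 of 4 detected. The liver marker Mir122 was at 111.8 and 31.6 CPM. The skeletal and cardiac muscle markers summed to 107.9 and 93.8 CPM, with 4 of 8 detected and Mir133a-2 at 0. The neuron and glia markers summed to 99.6 and 101.7 CPM, with 2 of 7 detected. Mir124a-1, Mir124a-2, Mir124a-3, Mir9-2 and Mir9-3 were at 0 in the gene counts. Reads that mapped to several places were left out of these counts, so a 0 here does not show that a miRNA was absent. The blood cell, endocrine and gut and kidney sums were higher in pup 2, as Mir130b, Mir130a and Mir148a were, and their part in those differences was not tested.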

How the data were processed

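For each library the authors deposited a table of raw read counts per miRNA gene. Reads of RNA under 30 nucleotides were aligned to mm10 and counted at the genes of GENCODE release M4, per the labels and the text deposited with the tables. The sources used here do not name the aligner or the counting tool. Columns carry no names. For every gene the first count column equals the sum of the others, so it was read as both strands. The strands of the other columns were read from their values. The second was taken as sense and the third, with 3.17% of the counts in pup 1 and 3.18% in pup 2, as opposite strand. Lines of unassigned reads (34.1% of reads in pup 1 and 35.2% in pup 2) stayed out of library sizes and tests.

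Symbols came from GENCODE M21 by Ensembl number (1894 of 1973 matched), and all 7 members matched. TMM scaling used edgeR 4.0.16 under R 4.3.3, with DESeq2 1.42.0 as an alternative. Log2 ratios used a prior count of 0.5. Intervals are exact (Clopper-Pearson). Python 3.11.15 with scipy 1.17.1 did the rest. The test per gene was checked on counts simulated with counting noise alone, which does not cover the further spread between these libraries. The members and lists were chosen with earlier results of these data known. Named genes were the members, genes with their seeds, miRNA genes within 10000 bases, the gene nearest in level to each member and the leading genes of 3 other families. The 2 libraries come from separate pups, and p-values measure only the difference between these libraries.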

Additional observations from a re-analysis of the deposited data

How the results depend on the processing

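The shares of the leading genes were 87.5% and 62.4% with counts of both strands too. Adding the measured genes of the same seed, all at 0 counts, could not move them. Leaving out 1 of 2 pups could not move them beyond the range of the pups. The median log2 ratio of the 7 members was 0.06 and turned to -0.0069 with no count filter. Then the log2 ratios of Mir301 (-0.0081), Mir152 (-0.0069) and Mir148b (-0.030) turned too, and that of Mir148a (0.07, adjusted p 0.284 by the exact binomial test) no longer passed. The ratio of Mir148b was also -0.0015 with DESeq2 size factors and -0.0015 with Mir143 left out of the totals, and that of Mir301b was 0.0075 with a prior count of 5. The filter, the size factors and the totals change a log2 ratio only through the library scaling. Such a change moves the ratios of all genes by the same amount. A prior count of 5 weighs most on low counts such as those of Mir301b. The ratios of Mir130a and Mir130b stayed positive under every setting run for them, from 0.07 to 0.13 and from 0.24 to 0.30. The number of members that differed between the pups was 3, and 0 with a minimum of 1.5-fold. Over all genes it was 117, and 17 with that minimum. With edgeR's exact test the numbers were 0 and 5, but its spread is estimated from the same 2 libraries, so it says nothing on whether the calls are stable. With Mir143, which holds 52.5% of all counts, left out of the totals, the summed level was 22586 CPM against 10734 CPM. Per base of gene length 4 of 7 members kept their position in the order, and without replicate 1 it was 5. Depth limits Mir301b most. No paired analysis was possible because there is only 1 group.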

Other observations

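For each member with at least 100 counts in each library, the gene outside the families with the most similar pair of levels was found among 196 genes by the distance of log2 CPM over the 2 libraries. It was Mirlet7d for Mir130a (9067 and 7851 CPM in pups 1 and 2, distance 0.22), Mir708 for Mir130b (560.3 and 560.4 CPM, 0.21), Mir872 for Mir301 (633.7 and 652.5 CPM, 0.07), Mir467c for Mir148a (637.9 and 718.0 CPM, 0.07), Mir700 for Mir148b (146.6 and 137.5 CPM, 0.07) and Mir34c for Mir152 (251.3 and 257.1 CPM, 0.01). Mir301b had under 100 counts. Over 2 libraries this likeness is one of level alone.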
